A study of Mus musculus with 2 samples.

Results

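Egr1, Egr2, Egr3, Egr4, Nr4a1, Nr4a2, Nr4a3, Npas4, Arc and Dusp1 are 10 genes that neurons switch on within minutes of electrical or synaptic activity, chosen by name out of 21826 annotated protein-coding genes. Their chromatin was described in cerebellum tissue from 2 male B6CASTF1/J mice aged 36 days, F1 hybrids of C57BL/6J and CAST, with 1 DNase-seq library per animal. In DNase-seq, nuclei are treated with the enzyme DNase I, and peaks of its cuts mark accessible DNA. Footprints are short stretches inside accessible DNA that are protected from cutting. Both animals, numbered replicates 1 and 2 by the labels, form 1 group with no treatment given. The labels list the same donor entry for both, so they may differ by little more than library preparation. With 1 group no comparison between conditions and no test across animals was possible, and every value below is a description of each animal's own map. The tissue mixes cell types, so accessibility in fewer cells cannot be told apart from less accessibility per cell.

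Calcium entry and growth factor signals activate MAP kinases and the transcription factors CREB, SRF and MEF2, which bind the cAMP response element (CRE), the CArG box and the MEF2 site. The Egr proteins are zinc finger transcription factors that bind a GC-rich site, the Nr4a proteins are orphan nuclear receptors that bind the NBRE, and Npas4 is a basic helix-loop-helix PAS factor linked to inhibitory synapse formation. Arc is a synaptic protein that promotes removal of AMPA receptors, and Dusp1 is a phosphatase that inactivates MAP kinases.

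The CRE core, TGACG or its reverse complement CGTCA, was present in at least 1 promoter entry of every member that was matched to a sequence. RefSeq promoter sequences (GRCm38.p6, 250 bases before to 50 after each start) were matched for 7 members: Egr2, Egr4, Nr4a1, Nr4a2, Nr4a3, Npas4 and Dusp1. Egr1, Egr3 and Arc had no entry. The core stood in 7 of 7 members, against 26.9% of the 16514 protein-coding genes in the table, counting a gene if any of its entries held it. Egr2 has 5 entries, and not all of them held a core. In all 7 at least 1 core touched a footprint in both animals, by 1 base or more, against 9.25% of genes in the table. At Nr4a1 only the closing A of that core lay inside footprints of both animals, and at Npas4 only the closing CA. At Egr2, Egr4, Nr4a2, Nr4a3 and Dusp1 a core lay wholly inside. The Nr4a2 core nearest the start had only its closing G inside. The members' promoters were rich in CpG, with observed over expected CpG ratios of 0.603 to 1.04 against a table median of 0.588, and the core holds a CpG. Of table genes with a promoter peak in both animals and at least 21 CpG, 41.2% held a core. In 18.1% a core touched a footprint in both animals. The limit of 21 is the lowest number in these 7 genes when the richest entry of each is taken. The Egr2 entries that held a core had 16 to 19 CpG, below that limit. The cores that touched footprints in both animals and lay nearest the start are shown with 18 bases on each side, on the gene's strand of mm10, with the core in capitals. The sequence is that of the C57BL/6J reference, so CAST alleles are not represented.
Egr2 (chr10:67537796-67537836, plus strand): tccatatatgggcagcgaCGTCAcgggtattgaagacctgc
Egr4 (chr6:85513676-85513716, minus strand): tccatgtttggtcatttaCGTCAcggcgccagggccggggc
Nr4a1 (chr15:101266759-101266799, plus strand): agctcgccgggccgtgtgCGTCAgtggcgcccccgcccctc
Nr4a2 (chr2:57124092-57124132, minus strand): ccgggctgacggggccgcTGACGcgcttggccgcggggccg
Nr4a3 (chr4:48045140-48045180, plus strand): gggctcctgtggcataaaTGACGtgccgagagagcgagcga
Npas4 (chr19:4990128-4990168, minus strand): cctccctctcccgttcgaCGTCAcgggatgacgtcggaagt
Dusp1 (chr17:26508590-26508630, minus strand): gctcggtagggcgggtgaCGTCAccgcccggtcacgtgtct

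The cores shown begin between 55 bases (Egr2) and 179 bases (Npas4) before the RefSeq start. For Npas4 and Nr4a3 that start lies inside the GENCODE gene, and the core shown lies downstream of the first GENCODE start. The cores of Egr2, Nr4a1 and Dusp1 also lie inside the GENCODE gene body, but upstream of a later GENCODE start. Only those of Egr4 and Nr4a2 lie upstream of the whole gene. Egr4 had a second core touching footprints in both animals 177 bases before the start, Nr4a2 at 200 bases, Nr4a3 at 231 bases and Dusp1 at 191 bases. Nr4a1, the orphan receptor Nur77, had 4 cores, of which the one at 69 bases touched footprints in both animals, the one at 40 bases in replicate 2, and the other two in neither. Dusp1 carried the only full CRE, TGACGTCA, found in 2.64% of the table's genes, and it lay in footprints of both animals. The Dusp1 promoter is shown whole because it holds the full element, with capitals marking bases inside footprints of both animals (chr17:26508423-26508722, minus strand).
Dusp1: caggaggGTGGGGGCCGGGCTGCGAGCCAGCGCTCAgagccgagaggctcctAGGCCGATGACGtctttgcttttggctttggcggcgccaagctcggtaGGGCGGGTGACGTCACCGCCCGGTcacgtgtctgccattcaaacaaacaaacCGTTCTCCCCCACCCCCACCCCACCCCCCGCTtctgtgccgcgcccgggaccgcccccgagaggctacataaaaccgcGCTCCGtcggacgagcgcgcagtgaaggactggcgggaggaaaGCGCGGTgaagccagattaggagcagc

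**Figure D1:**
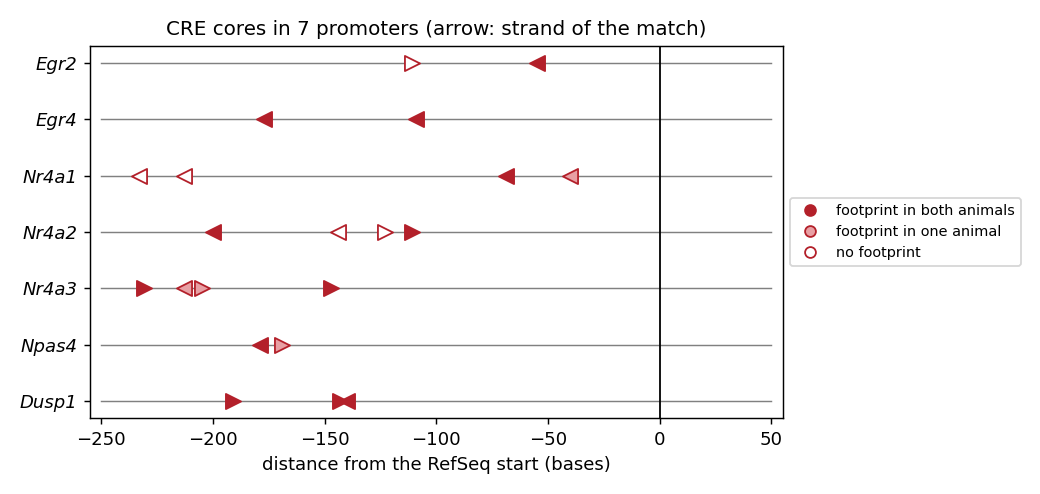
Positions of CRE cores (arrows) in 7 member promoters by distance from the RefSeq start in bases, with 1 of the overlapping Egr2 entries closest to each match. Filled arrows touch a footprint by 1 base or more in both animals, pale arrows in 1 animal and open arrows in neither. Every gene has a filled arrow.

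Other elements tied to these genes were less regular. The GC box, GGGCGG, was in 6 of 7 promoters, against 51.0% of table genes. The Egr site, GCGNGGGCG, was found in Nr4a1 and Nr4a2, against 8.87% of table genes. In Nr4a1 it overlapped the footprints of both animals, 60 bases before the start, and in Nr4a2 it touched none. Only Egr2 held a CArG box, found in 1.75% of table genes. Egr2 has 5 entries in the table, so more of its sequence was searched than of the others. It had 2 CArG boxes. The one just upstream of the CRE core shown touched a footprint in replicate 2 and not in replicate 1, and the other touched none. The MEF2 site (0.575% of table genes), the NBRE AAAGGTCA (1.52%), the AP-1 site TGANTCA (8.16%) and the CTCF core (4.36%, a motif added after the data were seen) matched none of the 7, and TATAAA (14.3%) matched Nr4a2. All motifs were searched on both strands, and a match is not a bound site.

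Replicate 1 had 140127 peaks, 342409 footprints and a median peak height of 0.764, and replicate 2 had 114404 peaks, 262603 footprints and a median height of 0.899. The height is the authors' own signal per peak, on no stated common scale between libraries, and sequencing depth is unknown, so each height is also given as a percentile among accessible promoters of the same animal. All 10 granule cell markers had a promoter peak in both animals, as did 5 of 6 Purkinje cell markers, 5 of 6 astrocyte and Bergmann glia markers and 3 of 6 oligodendrocyte markers. The microglia markers had none of 6, and the endothelial, forebrain neuron and liver markers 1 of 6 each. Of all 21826 protein-coding genes 13731 had one in both animals. The peaks differed in height. Granule cell markers with a peak had median percentiles of 65.5 and 62.4 in replicates 1 and 2. The medians were 16.8 and 13.5 for Purkinje cell, 7.64 and 4.16 for astrocyte and Bergmann glia, and 14.6 and 17.4 for oligodendrocyte markers. The Purkinje cell markers differed among themselves. Itpr1 stood at the 74.0 and 80.8 percentiles in replicates 1 and 2, and Rora at 51.0 and 45.9. Calb1, Car8 and Gad1 stood at or below 16.8 and 13.5. The defining Purkinje gene Pcp2 had no promoter peak in either animal.

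A promoter peak, meaning a peak within 1 kb of a protein-coding start, was found at 10 of 10 members in both animals. Over all protein-coding genes the share was 67.0% in replicate 1 and 63.5% in replicate 2. The members' peaks were of middling height. Their median was 8.99 in replicate 1 and 7.76 in replicate 2, against 9.10 and 6.65 for all accessible genes. The median percentile of the members was 49.5 in replicate 1 and 56.5 in replicate 2.

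The members lie on 9 chromosomes of mm10, with Nr4a1 and Arc on the same one. The Egr genes are at chromosome 18, 34859823 to 34864984 (Egr1), chromosome 10, 67535475 to 67542188 (Egr2), chromosome 14, 70077203 to 70082614 (Egr3) and chromosome 6, 85511121 to 85513589 (Egr4). The Nr4a genes are at chromosome 15, 101254269 to 101274795 (Nr4a1), chromosome 2, 57106830 to 57124003 (Nr4a2) and chromosome 4, 48045153 to 48086447 (Nr4a3). Npas4 is at chromosome 19, 4984355 to 4990316, Arc at chromosome 15, 74669083 to 74672570, and Dusp1 at chromosome 17, 26505590 to 26562128.

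Dusp1, the MAP kinase phosphatase, and Egr1, a transcription factor widely used as a marker of recent neuronal activity, had the highest promoter peaks. Dusp1 had heights of 28.9 and 17.8 in replicates 1 and 2, at the 96.2 and 95.0 percentiles. Egr1 had heights of 27.0 and 16.1, at the 94.7 and 91.7 percentiles. Arc followed with heights of 15.2 and 9.13, at the 71.4 and 64.5 percentiles. These 3 genes kept this order in both animals, each above the next by more than the larger SD of the pair's mean percentiles. Here and below the SD comes from 2 values with the same donor entry. It may reflect little more than library preparation.

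The middle of the order was occupied by Egr4 and the Nr4a receptors, with neighbours in the order closer than the spread between animals. Nr4a2, also called Nurr1 and needed for midbrain dopamine neurons, had heights of 11.2 and 7.96. Egr4 had 9.81 and 7.84. Nr4a3 had 8.12 and 7.68, and Nr4a1 had 8.18 and 7.43. Their mean percentiles lay between 57.7 ± 0.20 for Nr4a2 and 50.5 ± 5.7 for Nr4a1 (SD, n = 2 each). These ends of the middle group kept their order in both animals, and their means lay further apart than the larger of the 2 SDs. Nr4a3 and Nr4a1 changed places between animals.

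The lowest promoter peaks were those of Npas4, Egr2 and Egr3. Npas4, which is expressed almost only in neurons, had heights of 7.13 and 4.06, and Egr2, a regulator of hindbrain patterning and Schwann cell myelination, had 5.80 and 4.43. Their mean percentiles of 38.1 ± 5.6 and 36.7 ± 0.70 (SD, n = 2 each) did not differ beyond the spread, and their order was not the same in both animals. Egr3, which is needed for muscle spindle development, was lowest in both animals with 2.83 and 2.88, at the 25.5 and 27.0 percentiles.

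**Figure D2:**
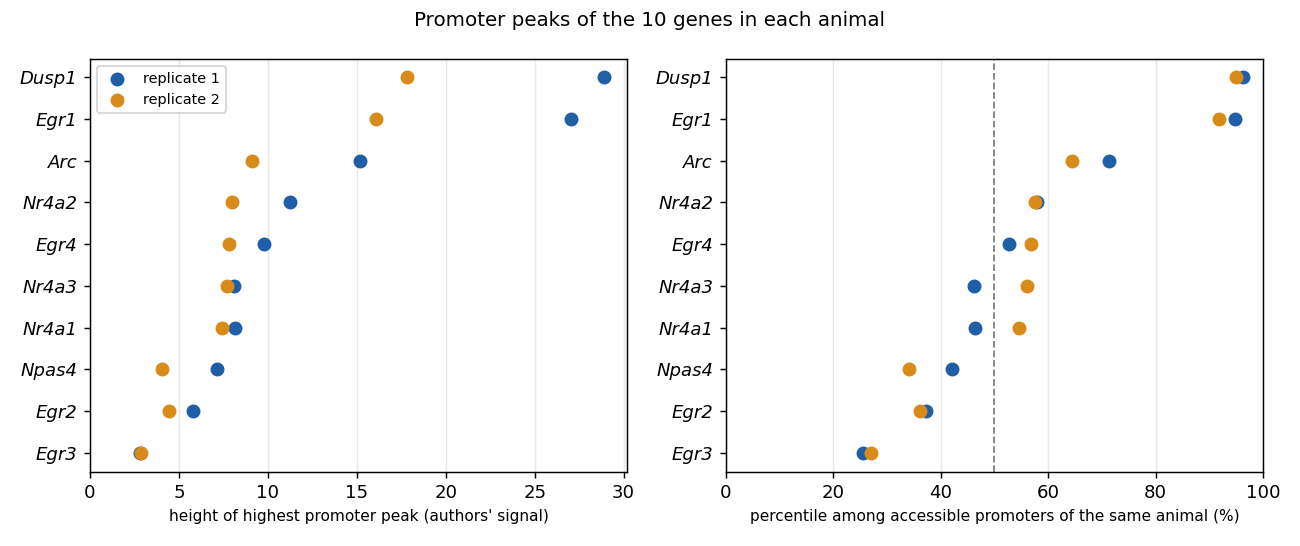
Height of the highest promoter peak (left, authors' signal) and its percentile among accessible promoters of the same animal (right) for each gene, with replicate 1 in blue and replicate 2 in orange and a dashed line at the 50th percentile. Dusp1 and Egr1 lie above the 90th percentile in both animals and Egr3 is lowest in both.

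At members with more than 1 window of starts, the peaks at the windows differed clearly in both animals at Nr4a3 and Egr2. Nr4a3 had its highest peak at the upstream start, 8.12 and 7.68 in replicates 1 and 2, against 1.70 and 1.55 at the downstream start. Egr2 had 5.80 and 4.43 at its downstream cluster of starts and 3.20 and 1.85 at its upstream cluster. Nr4a1 had peaks of like height at both starts, 8.18 and 7.43 at the downstream and 8.09 and 6.39 at the upstream one. Nr4a2 had 11.2 and 7.96 at its upstream start and 6.46 and 7.51 at its internal starts, close to each other in replicate 2. Dusp1 had 28.9 and 17.8 at its usual start. The start of its long transcript, 16.2 and 10.8, lies in a window shared with Ergic1, so that peak cannot be given to Dusp1 alone.

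The accessible stretch around the promoter was taken from the authors' deposited false discovery rates, by merging touching stretches of their list. The widest such stretch at a member's promoter had a median of 1758 bp in replicate 1 and 994 bp in replicate 2, against 989 and 1011 bp for accessible genes. Egr1 (2899 and 2245 bp), Nr4a3 (2695 and 1921 bp), Dusp1 (1991 and 2134 bp) and Nr4a2 (1525 and 3016 bp) were wide in both animals. Egr4 had 2681 and 927 bp and Arc 2233 and 985 bp, wide in replicate 1 and near the median in replicate 2. Egr3 (467 and 372 bp), Egr2 (713 and 712 bp) and Nr4a1 (849 and 785 bp) were narrow in both, and Npas4 had 1037 and 1003 bp.

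Promoter windows of the members held many footprints. The median was 16 in replicate 1 and 13 in replicate 2, against 8 and 7 for accessible genes, although members with several starts have more window to count in. Dusp1 had 29 and 26, Egr1 26 and 22, and Egr2 27 and 13. Egr3 had 11 and 4 and Egr4 7 and 11, the only members at or below the background median in an animal. Footprints took up 15.4% and 17.1% of the bases in the members' own promoter peaks, against 19.01% and 16.8% in all promoter peaks.

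Most members had more distal peaks than the median gene. Distal peaks are those within 50 kb of the gene body and outside all promoter windows. Some entries of the peak lists overlap one another, as at Egr4 in both animals, and each was counted as a peak. The median was 12 in replicate 1 and 10.5 in replicate 2, against 6 and 5 over all genes. Other lists also stood above all genes, with 11 and 9 for other activity-regulated genes and 21 and 19.5 for granule cell markers. Microglia markers, none with a promoter peak, had 10.5 and 8. Purkinje cell markers, with 4.5 and 4.5, forebrain neuron markers, with 3 and 2, and liver markers, with 5 and 3.5, stood below. Egr1 had 23 and 17, Egr4 23 and 19, and Dusp1 25 and 17. The Dusp1 body spans 56.5 kb because of 1 long transcript, and with the 2.93 kb body of the others, an alternative added after the values were seen, it had 13 and 12. Nr4a1 had 12 and 11, Nr4a3 11 and 11, Npas4 12 and 10, Egr3 8 and 6 and Nr4a2 7 and 3. Nr4a2 and Arc were above the median of all genes in replicate 1 and below it in replicate 2. Egr2 stood at the other end with 1 distal peak in each animal, of height 0.271 and 0.593, and the 2 peaks did not lie at the same place.

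**Figure D3:**
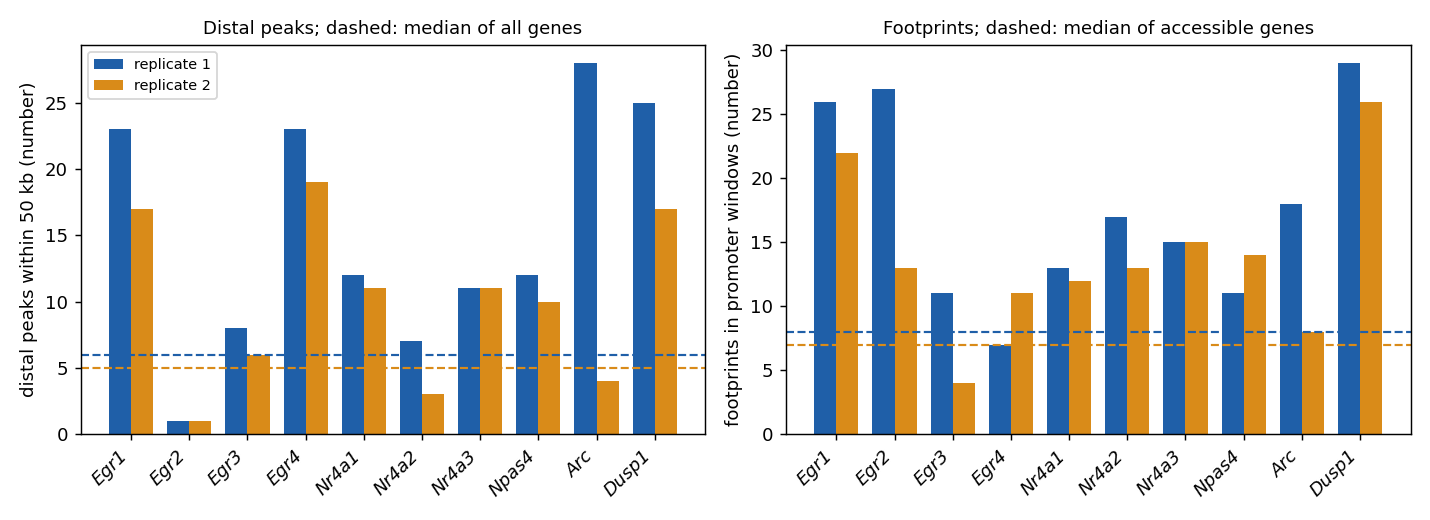
Number of distal peaks within 50 kb (left) and of footprints in promoter windows (right) for each gene in replicate 1 (blue) and replicate 2 (orange), with the median of all genes (left) and of accessible genes (right) dashed in the colour of the animal. Egr2 has 1 distal peak in each animal and Arc has 28 in replicate 1 and 4 in replicate 2.

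Arc was the member whose map differed most between the animals. It had 36 peaks of all kinds in replicate 1 and 7 in replicate 2, a ratio of 0.194, against a median ratio of 0.76 over the 4879 genes with at least 20 peaks in replicate 1. Arc, Cant1, Clba1 and Otx1 were the 4 genes with a ratio that low. This comparison was made after the Arc values were seen. The 29 peaks of replicate 1 with no counterpart were low, between 0.0596 and 1.18 in height with a median of 0.271, and 7 of them lay in the gene body, where replicate 2 had none. The 7 peaks of replicate 2 all had a counterpart in replicate 1 and included the promoter peak and the highest distal peak. Replicate 1 had the longer peak list, and its part in this difference was not tested.

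Of the 10 members, 5 had a distal peak higher than their own promoter peak in both animals. In both animals the highest distal peak stood above the promoter peak at Egr3, Egr4, Nr4a1, Nr4a3 and Npas4, and at Egr1 in replicate 1 only. Taken in each animal alone, a higher distal peak was found at 37.2% of accessible genes in replicate 1 and 34.6% in replicate 2. This stands beside 6 and 5 of the 10 members. The share of all genes with one in both animals was not counted. The members also had more distal peaks than the median gene, 12 and 10.5 against 6 and 5. A comparison with genes of like distal peak number was not made. Restricting to distal peaks within 10 kb left the same 5 members in both animals, against 24.3% and 22.4% of genes. With a promoter window of 2000 bp, which took in the Nr4a3 element, 5 members in replicate 1 and 4 in replicate 2 had a higher distal peak, against 35.5% and 32.9% of genes, and Egr3, Egr4, Nr4a1 and Npas4 were those in both. The members' count is close to the background share at that setting. The measure and its settings were chosen after the peaks were seen.

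**Figure D4:**
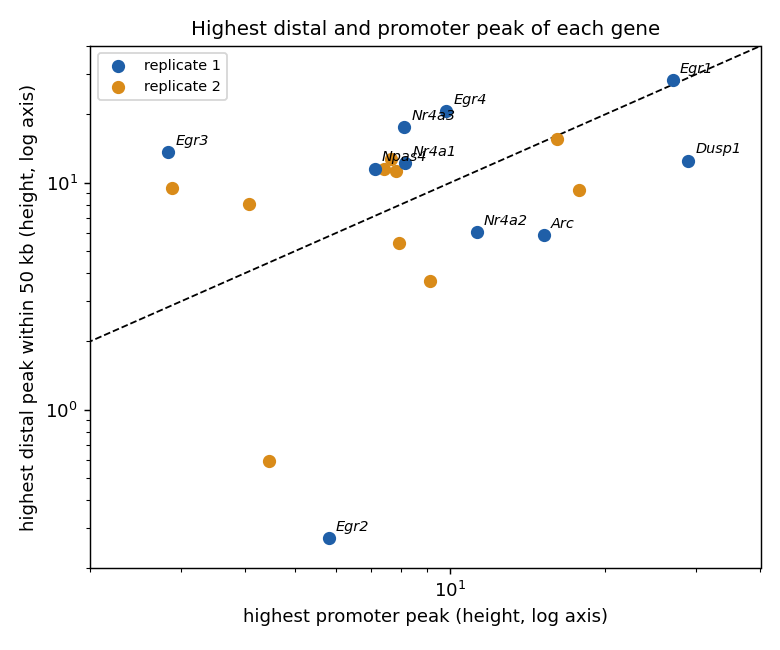
Height of the highest distal peak within 50 kb against the highest promoter peak for each gene (both log axes, authors' signal), replicate 1 blue with names and replicate 2 orange, with equality dashed. Egr3, Egr4, Nr4a1, Nr4a3 and Npas4 lie above the line in both animals and Egr2 lies far below it.

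Several of these elements sat a short way upstream. At Egr3 the peak 2192 bp before the nearest start in replicate 1 had heights of 13.6 and 9.49, against 2.83 and 2.88 at the promoter. At Egr4 the peak 2572 bp upstream had 20.6 and 11.3, and at Nr4a3 the peak 1732 bp upstream had 17.6 and 12.7. At Npas4 the peak 2795 bp upstream had 11.5 and 8.04, and it lay on an exon of AC124502.5, a transcript that GENCODE classes as TEC. A start of AC124502.5 also lay within 1 kb of it, so that peak cannot be given to Npas4 alone. At Nr4a1 the peak 7818 bp upstream of the earlier start had 12.2 and 11.5. All 5 were shared by both animals and stood above 93.8% of all peaks of their list.

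The other members' highest shared distal peaks were of other kinds. Egr1 had one 26344 bp downstream of its nearest start (mm10, chromosome 18, 34887461 to 34887640) with heights of 28.2 and 15.5, about as high as its promoter. Dusp1 had 12.5 and 9.30 at a peak inside Ergic1, whose start is nearer. Nr4a2 had 6.04 and 5.42 at a peak inside the gene, and Arc 5.88 and 3.68 at a peak 4687 bp downstream. Egr2 had no peak that was distal in both animals and shared.

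**Figure D5:**
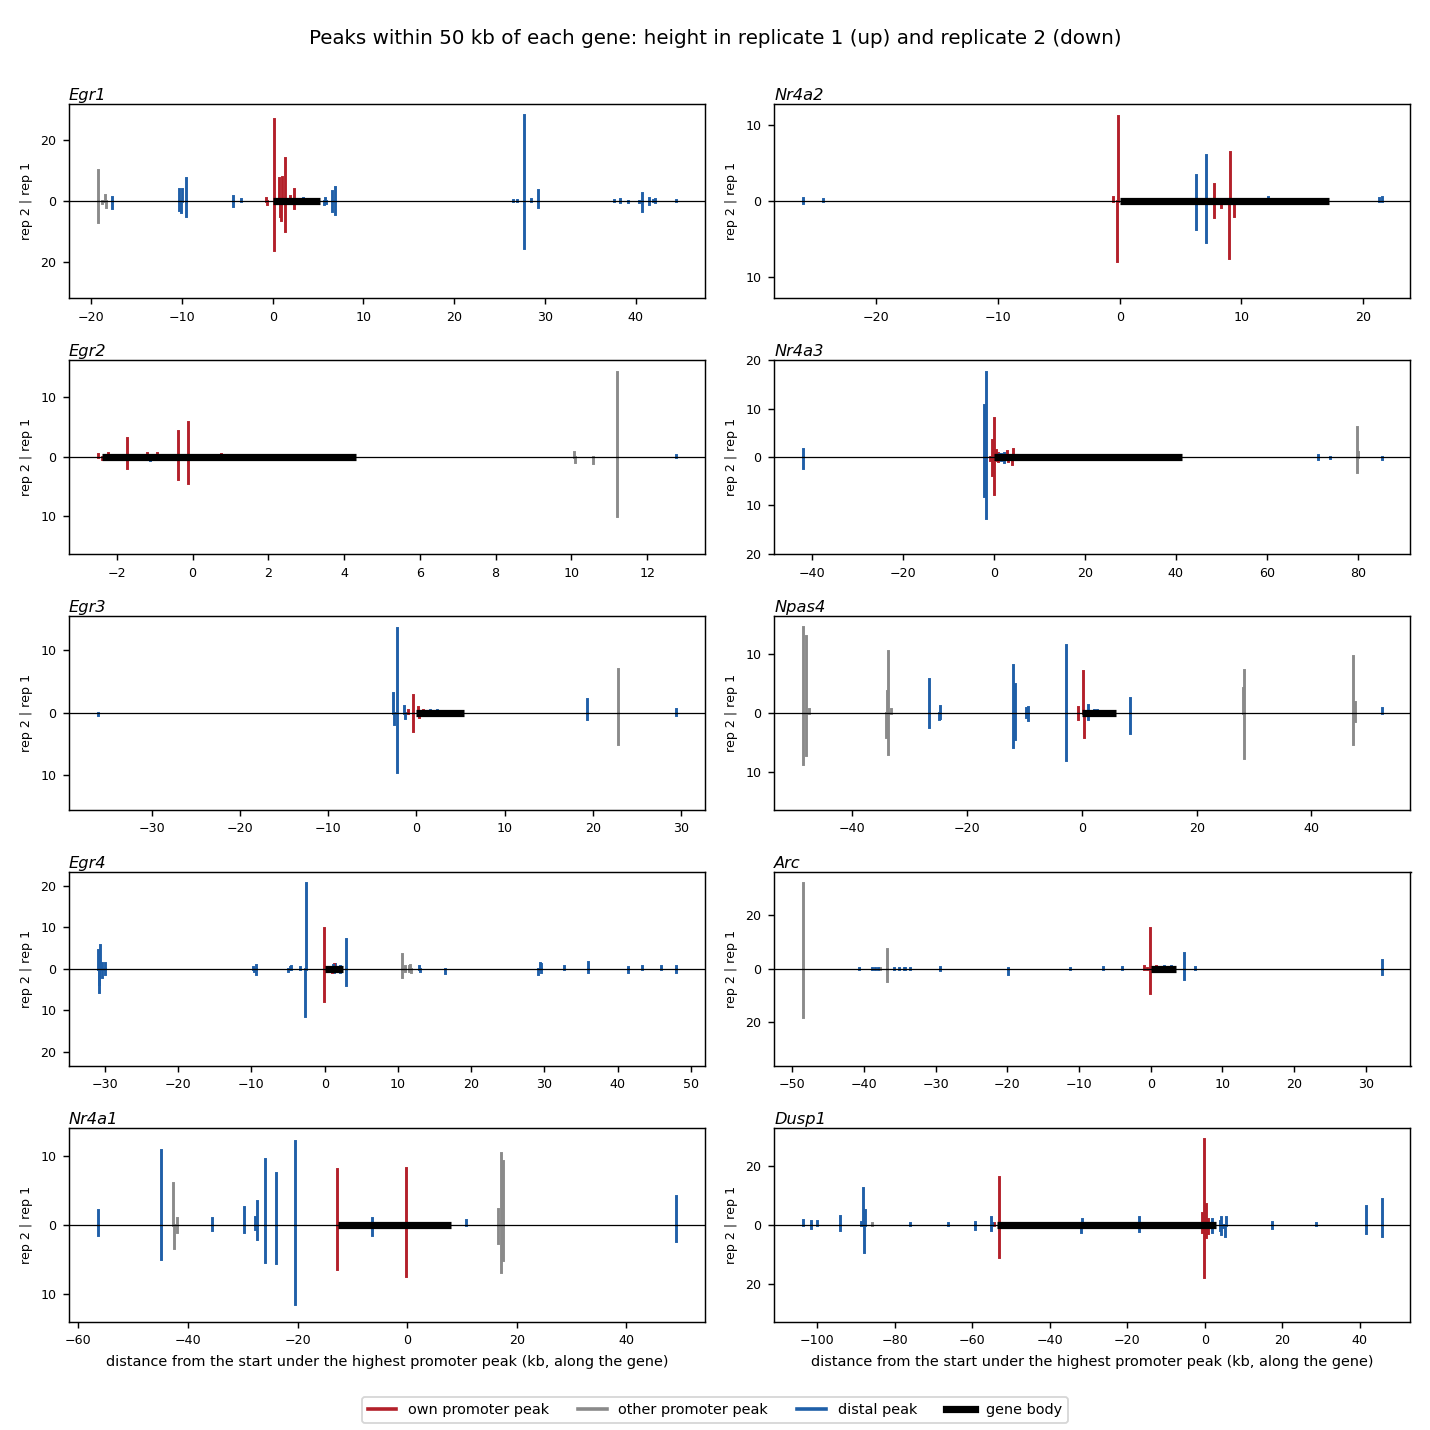
Peaks of each gene within 50 kb by distance from the start under its highest promoter peak (kb, along the gene), with height in replicate 1 drawn up and in replicate 2 drawn down. Own promoter peaks are red, distal peaks blue, promoter peaks of other genes grey and the gene body black, and the tall upstream elements of Egr3, Egr4 and Nr4a3 appear in both animals.

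The upstream elements of Egr4, Npas4 and Nr4a3 are shown because they were higher than the promoters they lie beside. The elements shown are limited to members with a RefSeq promoter entry, which leaves out the Egr3 element, and to lengths of at most 300 bases. They are given on the gene's strand with capitals marking bases inside footprints of both animals. Their positions are chr6:85516041-85516300 (minus strand), chr19:4993001-4993220 (minus strand) and chr4:48043321-48043580 (plus strand).
Egr4: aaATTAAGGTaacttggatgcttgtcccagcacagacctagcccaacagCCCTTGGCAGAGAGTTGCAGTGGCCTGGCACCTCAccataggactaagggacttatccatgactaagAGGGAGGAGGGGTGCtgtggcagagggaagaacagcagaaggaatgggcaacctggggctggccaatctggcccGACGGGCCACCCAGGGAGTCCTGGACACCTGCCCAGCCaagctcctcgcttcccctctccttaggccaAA
Npas4: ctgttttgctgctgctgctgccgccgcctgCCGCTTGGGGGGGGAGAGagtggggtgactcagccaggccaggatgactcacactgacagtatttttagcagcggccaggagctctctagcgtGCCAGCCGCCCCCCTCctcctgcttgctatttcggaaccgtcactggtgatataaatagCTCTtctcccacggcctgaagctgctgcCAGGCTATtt
Nr4a3: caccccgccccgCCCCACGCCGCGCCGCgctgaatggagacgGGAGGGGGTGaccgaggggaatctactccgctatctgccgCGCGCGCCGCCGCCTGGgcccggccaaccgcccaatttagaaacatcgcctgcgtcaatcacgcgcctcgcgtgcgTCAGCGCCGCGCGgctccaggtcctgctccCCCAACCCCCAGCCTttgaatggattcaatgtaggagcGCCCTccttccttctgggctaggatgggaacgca

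The Nr4a3 element held a CRE core partly inside footprints of both animals and a second core that touched none. The Npas4 element held a pair of AP-1 matches, a CRE core and a TATAAA match, none of which touched a footprint, and a GC box that did in both animals. The Nr4a1 element, which is longer than 300 bases and is not shown, held an Egr site and a CRE core that touched footprints in both animals. Over 200-base windows at all distal peaks near the members, a CRE core was present in 12% in replicate 1 and 16.2% in replicate 2, against 8.67% and 8.41% of all distal peaks. AP-1 matches were in 6.67% and 7.07% of the members' distal peaks, against 7.05% and 7.93% of all.

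The share of peaks found again in the other animal depended on the list it was taken from. In replicate 1 147 of 231 peaks (63.6%) overlapped a peak of replicate 2, against 65.8% of its whole list. In replicate 2 148 of 165 (89.7%) overlapped a peak of replicate 1, against 80.4% of its whole list. Shared distal peaks near the members had a median height of 1.89 and 1.75 in replicates 1 and 2, against 1.12 and 1.01 for all shared distal peaks.

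Nearly all genes listed as acting with the members had a promoter peak, at heights that varied between lists. All 32 other activity-regulated genes, 13 of 13 upstream activators, 7 of 7 partners and corepressors and 6 of 6 MAP kinases had a promoter peak in both animals. Of 9 other MAP kinase phosphatases 8 had a peak in both animals, beside 13731 of all 21826 protein-coding genes. The lowest heights among the other activity-regulated genes were 0.249 and 0.178 in replicates 1 and 2. The median percentiles of the other activity-regulated genes were 65.8 and 73.3, led by Jun, an AP-1 subunit, with heights of 32.3 and 20.3, Klf10 and Per1. Creb1, the gene of CREB, had 25.8 and 14.9, and Crtc1, its coactivator, 21.8 and 13.4. Nab2, a corepressor of Egr proteins, had 9.02 and 6.15, and Rxrb, of the retinoid X receptor family with which Nr4a1 and Nr4a2 pair, had 25.2 and 13.3. The family's other genes were far lower, Rxra with 1.64 and 1.41 and Rxrg with 0.509 and 0.464, and were named after their values were seen. The median percentiles of the partners and corepressors were 44.6 in replicate 1 and 41.9 in replicate 2.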

How the data were processed

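DNase-seq libraries of cerebellum from 2 mice, 1 per animal, were used. Per the labels, all files are on mm10, and each animal has its own files. The sources used here name no aligner, peak caller or footprint caller. The peak height is a signal that the authors deposited per peak; the longer of each animal's peak lists was used. The deposited p-value type of entry is 0.01 for every footprint, so only positions were used. The authors' deposited false discovery rates, also a p-value type of measure, were merged into regions where stretches touched. The 10 genes and the lists were chosen with earlier results of these data known. Genes came from GENCODE M21 on GRCm38.p6, and no peak passed a chromosome end.

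Promoter windows covered 1000 bp on both sides of each protein-coding start. Overlap needed 1 bp, percentiles ranked the highest promoter peak among accessible genes of the same animal, and distal peaks lay in the gene body or 50 kb around it, outside all promoter windows. All members are named; of every other list the named genes come from the 3 with the highest mean percentile and up to 2 with no promoter peak. Counts were checked on simulated intervals (Python 3.11.15, NumPy 2.4.6). Alternatives were smaller and larger windows and flanks, the shorter peak list, peaks above the median height, distal peaks nearest to the gene's own start, and each animal alone.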

Additional observations from a re-analysis of the deposited data

How the results depend on the processing

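No paired analysis was possible because both animals belong to 1 group. The promoter peak at all 10 members was found under every window, list and animal tried. Under these windows and lists 55.8% to 69.3% of all protein-coding genes had one. The members' median percentile, under the windows and the shorter list, moved by less than the SD between animals. The footprint median was 14.5 whether a footprint overlapped the window or had its midpoint in it. The number of distal peaks followed the size of the flank. The members' median over both animals was 11.25 with 50 kb, 6 with 10 kb and 18 with 100 kb. At 50 kb it was 8.25 with the shorter peak list. It was 7.75 when only peaks whose nearest protein-coding start was the member's were counted. The members' medians in replicates 1 and 2 were 8 and 4 with 10 kb, against 2 and 1 over all genes, and 21.5 and 14.5 with 100 kb, against 12 and 9. Distal counts at Arc depend on replicate 1, with 28 distal peaks there and 4 in replicate 2. Sequencing depth is unknown, so low peaks limit every count.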

Other observations

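The protein-coding genes outside the list whose profile lay nearest the members' median, in percentile of promoter height, distal peak number and promoter footprint number, were Aldh7a1, Axin2, Cadm3, Lrrc24 and Anapc5. The height percentile used for this ranking is on a different scale from that among accessible promoters given above. The members' median was 69.2 on it, against 49.5 and 56.5 above in replicates 1 and 2. Aldh7a1, an aldehyde dehydrogenase, had promoter heights of 10.5 and 6.79, 12 and 9 distal peaks and 13 and 16 promoter footprints in replicates 1 and 2. CTCF core matches were in 8.67% and 15.2% of the members' distal peaks in replicates 1 and 2, against 11.5% and 12.9% of all distal peaks. Of these member matches 12 of 13 (92.3%) and 12 of 15 (80%) touched a footprint, near the 84.5% and 76.9% of matches in all distal peaks. The CTCF core was added after the data were seen.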
